A study of Mus musculus with 35 samples.

Results

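The Hox genes encode homeodomain transcription factors and lie in 4 clusters in the mouse, Hoxa to Hoxd. Every row of the deposited gene table whose symbol names a gene of these clusters was taken, which gave 37 of 20261 genes: 10 Hoxa, 10 Hoxb, 9 Hoxc and 8 Hoxd genes. They were measured by RNA sequencing in NMuMG cells, a line of mouse mammary epithelium that passes through an epithelial-mesenchymal transition (EMT), in which cells give up their junctions and become mesenchymal, under transforming growth factor β (TGF-β). One arm was labelled JNKi, read here as inhibition of the kinase JNK by a compound that the labels do not name, and its control was the vehicle DMSO. Both arms had 2 libraries at each of 5 times (24, 48, 72 and 96 h and 7 d), 20 libraries in all, from cells labelled WT and strain E9. The titles of all samples name an EMT time course and the protocol gives TGF-β at 2 ng/ml, replaced every 2 days. The labels do not say whether cells of these arms received TGF-β, and no arm without it was sampled beside them, so time in culture and TGF-β cannot be told apart. The series also holds 15 libraries of a TGF-β time course, which were not analysed here. All cells are of 1 line.

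Within a cluster the genes are numbered by paralog group, from group 1 at the 3′ end to group 13 at the 5′ end. In the embryo, genes nearer the 3′ end are turned on earlier and nearer the head, and adult epithelia keep part of such a code. Polycomb proteins hold silent clusters off, retinoic acid switches on genes at the 3′ end, and Hox proteins bind DNA together with TALE cofactors such as the PBX and MEIS proteins. In the mouse the genes of paralog group 9 take part in the growth of the mammary gland in pregnancy. JNK responds to stress and acts on Jun, a subunit of AP-1.

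The libraries held 9.5 M reads (JNKi at 7 d, replicate 1) to 48.6 M reads (DMSO at 72 h, replicate 1). Nothing in the labels says that replicates came from separate cultures, so the p-values below reflect only how far these samples vary, possibly for technical reasons. Of 10 epithelial markers 9 were expressed, and their summed level (in RPM, reads scaled to a common library total) was 4186 to 4361 RPM in JNKi libraries of 7 d, 4960 to 6363 RPM in DMSO libraries of 7 d and 11900 to 13260 RPM in all libraries of 24 h. The epithelial surface marker Epcam was at 0 in all 4 libraries of 24 h. Mesenchymal markers (9 of 10 expressed) summed to 5634 to 6144 RPM in JNKi and 9574 to 10680 RPM in DMSO at 7 d, against 4310 to 4997 RPM at 24 h. Their sum was higher in between, at 12280 to 12390 RPM in JNKi and 16760 to 18940 RPM in DMSO at 96 h. JNKi libraries already lay below DMSO libraries at 48 h (10070 to 11380 against 12320 to 12510 RPM). Leukocyte markers reached at most 15.4 RPM and endothelial markers 27.3 RPM. Skeletal muscle markers, of which 1 of 5 was expressed, summed to 96.5 to 115.5 RPM in JNKi and 159.9 to 282.2 RPM in DMSO at 7 d, against 1.17 to 3.14 RPM at 24 h, while their defining genes Myod1 and Myog were at 0 at 24 h. Adipocyte markers stayed at or below 1.48 RPM. The part of these markers in the Hox results was not tested. In these bulk samples a change in the share of cells that use a gene and a change in RNA per cell cannot be told apart.

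The results below turn on Hoxb9, whose paralogs of group 9 share its DNA-binding domain, and reads from a shared stretch could be split between copies. The homeobox of Hoxb9 and that of Hoxc9, its paralog in a silent cluster, are therefore shown on the coding strand (GRCm38, GENCODE M21 gene models), with capitals at every base of Hoxc9 unlike Hoxb9.
Hoxb9: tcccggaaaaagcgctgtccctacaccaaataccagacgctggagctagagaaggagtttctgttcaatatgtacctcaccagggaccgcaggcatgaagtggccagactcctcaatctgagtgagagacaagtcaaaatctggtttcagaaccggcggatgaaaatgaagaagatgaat
Hoxc9: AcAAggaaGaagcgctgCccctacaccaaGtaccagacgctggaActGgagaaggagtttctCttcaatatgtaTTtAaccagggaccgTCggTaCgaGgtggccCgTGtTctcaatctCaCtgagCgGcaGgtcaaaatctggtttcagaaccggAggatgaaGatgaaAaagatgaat
The Hoxb9 homeobox lies at chr11:96274659-96274838 on the plus strand, in the coding part of exon 2 of 2. That of Hoxc9 lies at chr15:102983930-102984109 on the plus strand, in exon 3 of 3. Over these 180 bases Hoxc9 differed from Hoxb9 at 29 positions, an identity of 83.9%, and the longest run shared was 24 bases. Hoxd9, the group 9 paralog in the other silent cluster, was slightly closer, with 28 positions, 84.4% and a run of 40 bases. Over the whole coding sequence the longest run that Hoxb9 shared with any member was 40 bases, with Hoxd9. Across the coding sequences of all 37 members the longest exact run shared by any pair was 52 bases, between Hoxb4 and Hoxa6. Read length is not given in the sources used here. The whole genes lie at chr11:96271457-96276595 on the plus strand (Hoxb9), chr11:96194316-96197447 on the plus strand (Hoxb13) and chr6:52231197-52240854 on the minus strand (Hoxa10). No other member and no antisense gene with a Hox name overlaps them. Genes with other names were not searched. Positions are given in GRCm38, whereas the authors' build was mm9.

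Expression was confined to the Hoxa and Hoxb clusters when expressed meant a mean of at least 10 normalized reads in at least 1 of the 10 groups. By this measure 6 of 10 Hoxa genes (among them Hoxa2, Hoxa3, Hoxa5, Hoxa9 and Hoxa10), 7 of 10 Hoxb genes (Hoxb3, Hoxb4, Hoxb5, Hoxb6, Hoxb8, Hoxb9 and Hoxb13) and 0 of 17 Hoxc and Hoxd genes were expressed, 13 members in all. Of all 20261 genes 13896 were expressed. Low genes lay between expressed ones along both clusters: Hoxa4, Hoxa6, Hoxa7 and Hoxb7 stayed below the limit. Also below it were Hoxb1 and Hoxb2, 3′ of all expressed Hoxb genes, and Hoxa11, 5′ of all expressed Hoxa genes. Hoxb7 had a mean of 1.79 ± 1.35 normalized reads over the 20 libraries (SD, n = 20). Its neighbours Hoxb6 and Hoxb8 had 138 ± 54.8 and 83 ± 20.5 (SD, n = 20 each). Hoxb2 came nearest to the limit from below, with a group mean of 8.2 normalized reads, and Hoxb1, Hoxa7 and Hoxa11 had at most 0.8. Hoxa5, with a highest group mean of 10.5, was the nearest above it, and its single libraries spanned 0 to 12.9. Hoxa13 and Hoxd12 were not analysed here.

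**Figure D1:**
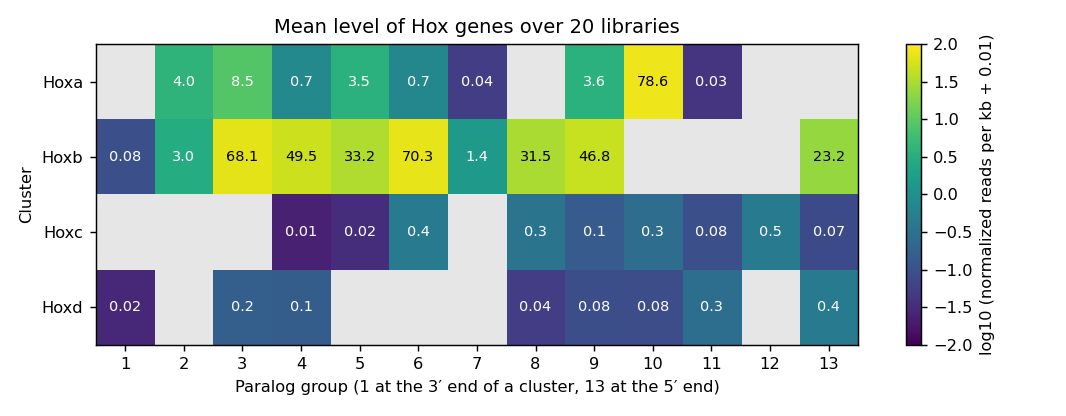
Mean level of Hox genes over the 20 libraries in normalized reads per kb of exon, by cluster (rows) and paralog group (columns), with colour on a log10 scale. Grey cells carry no value here; all plotted levels of 20 or more lie in the Hoxa and Hoxb rows.

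Per kb of exon, the scale on which levels of different genes can be compared, Hoxa10 stood first with a mean of 78.6 normalized reads per kb over all libraries. Hoxa10 patterns the uterus. It was followed by Hoxb6 (70.3), a gene of the trunk and limb bud, Hoxb3 (68.1), which acts in the hindbrain, and Hoxb4 (49.5), known for the expansion of blood stem cells. Hoxb9 (46.8 per kb), Hoxb5 (33.2), Hoxb8 (31.5) and Hoxb13 (23.2), known from the prostate and the tail, came next. The low members were Hoxa3 (8.53 per kb), needed for the thymus, Hoxa2 (4.01), which sets the identity of the second pharyngeal arch, Hoxa9 (3.58) and Hoxa5 (3.52), which acts in the lung. Only Hoxb13 and its next neighbour Hoxa3 had ranges over the libraries that did not overlap (14 to 47.7 against 5.56 to 12.9 per kb). The ranges of all other neighbours overlapped, though Hoxa3 was above Hoxa2 in 20 of 20 libraries and Hoxb3 above Hoxb4 in 18. Hoxa10 was above Hoxb6 in only 10 of the 20. Per kb of coding sequence instead of exon, Hoxb6 (205) stood above Hoxa10 (198), so the first place depends on the length used.

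The order by group means differed between times. Hoxb9 made up 11.4% of the summed Hox level per kb in JNKi at 7 d (rank 3) and 22.1% in DMSO at 7 d (rank 1), against 2.45% in JNKi and 1.96% in DMSO at 24 h (rank 9 in both). Hoxa10 made up 11.9% in either arm at 7 d, against 25.4% in JNKi and 26.8% in DMSO at 24 h (rank 1 in both). The Hoxb cluster as a whole gave 72.5% of the sum in JNKi at 7 d and 73.4% in DMSO at 7 d, against 56.9% in JNKi and 57.1% in DMSO at 24 h.

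Hoxc and Hoxd genes were close to silent. Reads on all 17 of them together numbered 0 to 6 in every library from 24 to 96 h. At 7 d they numbered 10 and 41 in JNKi libraries and 8 and 29 in DMSO libraries, which is 1.05 and 1.12 RPM with JNKi and 0.48 and 0.708 RPM with DMSO. Hoxd13, a limb bud gene with the most reads among them, had 24 reads over all 20 libraries, followed by Hoxc8 (14 reads), Hoxc6 (12), and Hoxc10, Hoxc12 and Hoxd3 (9 each). Hoxd4 had 7 reads, Hoxc9, Hoxc11 and Hoxc13 had 5 each, Hoxd10 had 4, Hoxd8 and Hoxd11 had 3 each, Hoxc5 and Hoxd9 had 2 each, and Hoxc4 and Hoxd1 had 1 each. The 523 olfactory and vomeronasal receptor genes below the expression limit, with 12 that reached it left out, were also highest at 7 d. They summed to 15.8 and 14.4 RPM in JNKi at 7 d, to 8.59 and 7.11 RPM in DMSO at 7 d, and to 1 to 1.71 RPM in the libraries of 24 h. Per gene, Hoxc and Hoxd members averaged 1.64 and 1.69 normalized reads in JNKi at 7 d, where the receptors averaged 0.799 and 0.704, and 0.8 and 1.16 in DMSO at 7 d, where the receptors averaged 0.463 and 0.383. The part of this background in the low Hox values was not tested. At the depth of the shallowest library, 3 reads correspond to 8.32 normalized reads, so a gene below that could go unseen there.

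**Figure D2:**
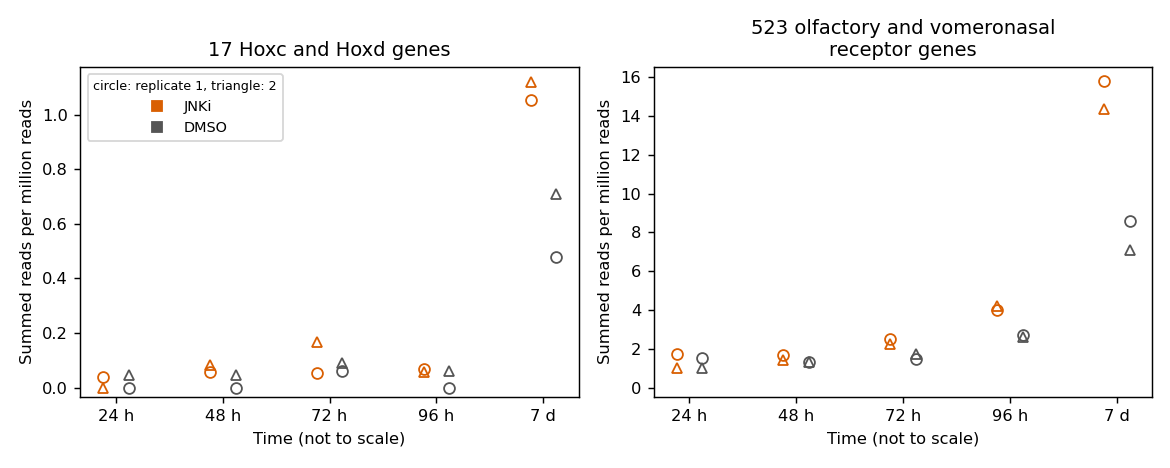
Summed RPM on 17 Hoxc and Hoxd genes (left) and on 523 olfactory and vomeronasal receptor genes (right), 1 point per library, by time and arm. Both sums were highest at 7 d, with JNKi libraries (1.05 and 1.12 for Hoxc and Hoxd) above DMSO libraries (0.48 and 0.708).

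The first comparison asked how the Hox genes moved between 24 h and 7 d in vehicle-treated cells. Of the 13 expressed members 10 changed, 7 higher and 3 lower (limma, adjusted p under 0.05), against 59.9% of all genes tested (32% higher, 28% lower). The Hoxb cluster gave 6 of the 7 rises, Hoxb9, Hoxb5, Hoxb8, Hoxb6, Hoxb4 and Hoxb3, and 1 fall, Hoxb13. The Hoxa cluster gave 1 rise, Hoxa2, and 2 falls, Hoxa9 and Hoxa10. Hoxa2 reached the expression limit only in groups of 96 h and 7 d, so its entry and its rise share values. The median log2 fold change of the 13 members was 0.59, beside 0.06 over all genes tested. Without DMSO 7 d replicate 1 the count was 6, and it was also 6 in a fit on the 4 libraries compared alone. The fit on these 4 libraries alone lost the calls of Hoxb3, Hoxb4, Hoxa9 and Hoxa10, and DESeq2 lost those of Hoxa2 and Hoxa9. Libraries of the 2 times did not overlap for 11 of the 13 members, against 78.7% of all genes.

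Hoxb9, which patterns the thorax and has been linked to breast cancer, rose most. In DMSO it stood at 16.9 and 21.6 (24 h), 80.5 and 89.8 (48 h), 87.1 and 109 (72 h), 143.9 and 171.1 (96 h), then 343.4 and 381.9 (7 d) normalized reads. Each later time except 72 h lay above all libraries of the time before it, and at 72 h the libraries overlapped those of 48 h. The mean was 363 ± 27.2 at 7 d and 19.2 ± 3.32 at 24 h (SD, n = 2 each), a ratio of 18.8. The log2 fold change was 4.17 (limma SE 0.20, adjusted p = 2.79e-10), rank 154 from the top among 13896 genes, and it lay between 3.77 and 4.34 in 31 other fits (other settings, other tools, or 1 or 2 libraries left out). By 96 h the log2 fold change over 24 h was already 2.97 (SE 0.20).

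**Figure D3:**
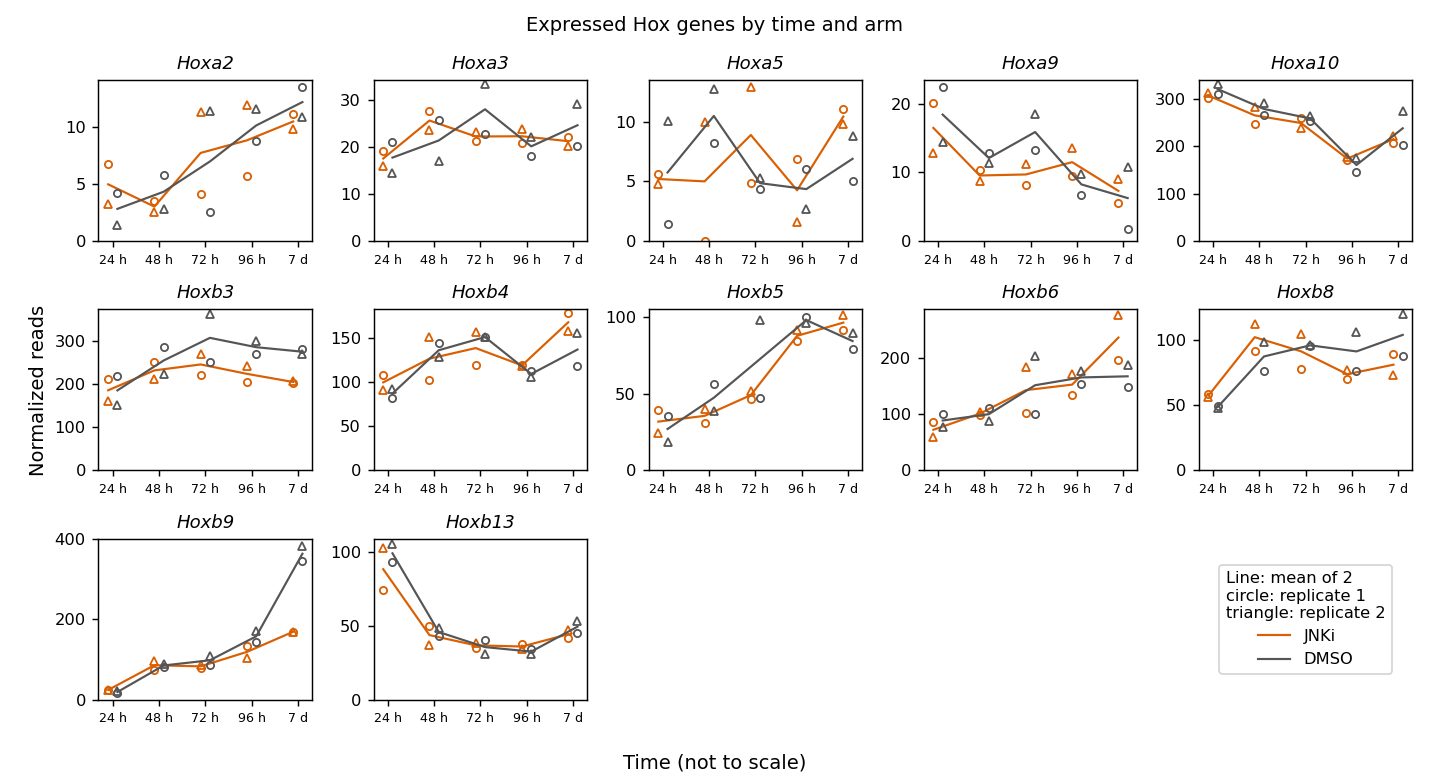
Normalized reads of expressed Hox genes at 5 times in JNKi (orange) and DMSO (grey); symbols are single libraries and lines join the means of 2. The Hoxb9 libraries of the arms lie apart at 7 d, with 169.1 and 168.7 in JNKi and 343.4 and 381.9 in DMSO.

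Hoxb5, which acts in the lung and the gut's nerve supply, rose with a log2 fold change of 1.67 (limma SE 0.34, adjusted p = 0.000522). In DMSO it stood at 35.1 and 18.7 (24 h), 56 and 38.5 (48 h), 47.4 and 97.6 (72 h), 99.8 and 95.8 (96 h), then 79.1 and 89.2 (7 d) normalized reads. Both libraries of 7 d and both of 96 h lay above both of 24 h and 48 h, and at 72 h 1 replicate (47.4) lay within the 48 h values and the other (97.6) within those of 96 h. Its neighbour Hoxb6 had 0.91 (SE 0.32, adjusted p = 0.0215). It stood at 99.8 and 77.8 (24 h), 112 and 88.3 (48 h), 100.4 and 203.1 (72 h), 154 and 177.3 (96 h), then 148.1 and 187.2 (7 d) normalized reads in DMSO, and its call did not hold without DMSO 24 h replicate 2 (adjusted p = 0.137) or DMSO 7 d replicate 2 (adjusted p = 0.127; range over 31 fits 0.00973 to 0.137). Both genes overlap the antisense gene Hoxb5os, and the sources used here do not give whether counting used strand, so reads of either strand cannot be told apart.

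Hoxb3 had a log2 fold change of 0.59 (limma SE 0.21, adjusted p = 0.0238). In DMSO it stood at 219.3 and 151.4 (24 h), 287.1 and 222.3 (48 h), 251.3 and 363.1 (72 h), 270.5 and 300.6 (96 h), then 281.1 and 269 (7 d) normalized reads, so the lowest 7 d library was above the highest 24 h library. The call did not hold without DMSO 24 h replicate 2 (0.33, adjusted p = 0.276) and without either DMSO library of 7 d (0.098 and 0.0605; range over 31 fits 0.00684 to 0.276), and Hoxb3 overlaps the antisense gene Hoxb3os. Hoxb8, which can hold myeloid progenitors in growth, had 1.06 (SE 0.23, adjusted p = 0.000869), with 104 ± 22.7 normalized reads at 7 d and 48.4 ± 1.13 at 24 h (SD, n = 2 each). Hoxb4 had 0.64 (SE 0.21, adjusted p = 0.0138), with 137 ± 26.7 at 7 d and 86.9 ± 7.64 at 24 h (SD, n = 2 each). The Hoxb4 call did not hold without DMSO 24 h replicate 1 (0.0792) and without DMSO 7 d replicate 2 (0.139; range over 31 fits 0.00769 to 0.139).

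Hoxa2 was low throughout. In DMSO it stood at 4.2 and 1.4 (24 h), 5.8 and 2.8 (48 h), 2.5 and 11.4 (72 h), 8.7 and 11.5 (96 h), then 13.5 and 10.8 (7 d) normalized reads, with both 7 d libraries above both of 24 h. Its log2 fold change was 1.89 (limma SE 0.62, adjusted p = 0.0155), lost on leaving out DMSO 24 h replicate 2 (0.152), or else DMSO 7 d replicate 1 (0.082; range over 30 fits 0.0082 to 0.152). Hoxa3 (0.45, SE 0.32) and Hoxa5 (0.57, SE 0.90) did not pass, with 95% intervals from -0.21 to 1.12 and from -1.33 to 2.47. The Hoxa3 gene model spans Hoxa4, Hoxa5 and Hoxa6 on the same strand and all 4 overlap the antisense gene Hoxaas3, so their values are uncertain.

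Hoxb13, at the 5′ end of the Hoxb cluster, fell, whereas the other 6 expressed genes of its cluster rose. It stood at 92.8 and 105.2 (24 h), 43.2 and 48.4 (48 h), 40.4 and 30.8 (72 h), 34.1 and 31 (96 h), then 45.4 and 53.4 (7 d) normalized reads in DMSO. The 24 h libraries lay above all 8 later ones, and most of the drop was present at 48 h. Its log2 fold change was -0.99 (limma SE 0.24, adjusted p = 0.00208), and the mean of 49.4 ± 5.66 at 7 d compared with 99 ± 8.77 at 24 h (SD, n = 2 each).

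Hoxa10 stood at 310.6 and 331.6 (24 h), 266.1 and 292.1 (48 h), 253.2 and 264.7 (72 h), 145.3 and 175.6 (96 h), then 202 and 274.4 (7 d) normalized reads in DMSO. It was lowest at 96 h, with 160 ± 21.4 normalized reads against 321 ± 14.8 at 24 h (SD, n = 2 each; limma adjusted p = 2.52e-05). At 7 d the log2 fold change was -0.45 (SE 0.15, adjusted p = 0.0187). The 7 d call did not hold without DMSO 24 h replicate 2 (-0.40, adjusted p = 0.0968) and without DMSO 7 d replicate 1 (-0.23, adjusted p = 0.269; range over 31 fits 0.00312 to 0.28). Hoxa9, the group 9 paralog in the Hoxa cluster and a gene of blood progenitors, stood at 22.5 and 14.4 (24 h), 12.8 and 11.4 (48 h), 13.3 and 18.5 (72 h), 6.7 and 9.8 (96 h), then 1.7 and 10.8 (7 d). Its log2 fold change of -1.75 (SE 0.54, adjusted p = 0.01) rested on DMSO 7 d replicate 1: without that library it was -0.69 (adjusted p = 0.253), and the call was also lost without DMSO 24 h replicate 1 (0.0759; range over 30 fits 0.000224 to 0.253).

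Over all 5 DMSO times 9 of the 13 members changed by limma's F-test, against 78% of all genes. At 96 h against 24 h, 8 members changed, 6 higher and 2 lower, against 63.3% of all genes (32.7% higher and 30.5% lower). The 6 were Hoxb9, Hoxb5, Hoxa2 (over the expression limit only in groups of 96 h and 7 d), Hoxb6, Hoxb8 and Hoxb3. The 2 were Hoxb13 and Hoxa10. This count was 5 without DMSO 24 h replicate 2 and 4 without DMSO 96 h replicate 2. Hoxa2 did not pass by edgeR (adjusted p = 0.0719) or by DESeq2 (adjusted p = 0.133). Hoxb3 did not pass in a limma fit on the libraries compared alone (adjusted p = 0.0534). Libraries of 96 h and 24 h did not overlap for 11 members, against 81.2% of all genes. The comparisons at 96 h and 7 d share the DMSO libraries of 24 h.

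The next comparison asked the same in JNKi-treated cells. Of the 13 members 6 changed between 24 h and 7 d, 4 higher and 2 lower, against 58% of all genes (31.7% higher and 26.3% lower), with a median of 0.48 beside 0.06 over all genes. The libraries of the 2 times did not overlap for 11 members, against 79.8% of all genes. The rises were all in the Hoxb cluster: Hoxb9, Hoxb6, Hoxb5 and Hoxb4. The falls were Hoxb13 and Hoxa10, which also fell in DMSO.

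With JNKi Hoxb9 stood at 24.7 and 24 (24 h), 74.4 and 97.1 (48 h), 79.8 and 86.1 (72 h), 133.2 and 104.6 (96 h), then 169.1 and 168.7 (7 d) normalized reads. It was higher at 7 d than at any earlier time in both replicates, and its log2 fold change over 24 h was 2.74 (limma SE 0.20, adjusted p = 3.82e-08). Hoxb6 stood at 85.5 and 59.1 (24 h), 98.6 and 103.3 (48 h), 101.8 and 184.2 (72 h), 134.5 and 171.2 (96 h), then 196.9 and 276.5 (7 d), a log2 fold change of 1.70 (SE 0.32, adjusted p = 0.000283), with both 7 d libraries above the rest. Hoxb5 stood at 39.4 and 24 (24 h), 31.1 and 39.8 (48 h), 46.4 and 51.5 (72 h), 84 and 91.1 (96 h), then 91.5 and 100.8 (7 d), a log2 fold change of 1.61 (SE 0.34, adjusted p = 0.000765), and 96 h and 7 d lay above the earlier times. Hoxb4 had 0.75 (SE 0.21, adjusted p = 0.0053), a call lost without JNKi 24 h replicate 2 (0.0544; range over 31 fits 0.00278 to 0.0544).

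Hoxb13 stood at 74.2 and 102.3 (24 h), 50.1 and 37.3 (48 h), 35 and 38.6 (72 h), 37.9 and 34.1 (96 h), then 41.6 and 46.9 (7 d) normalized reads with JNKi, a log2 fold change of -0.96 (limma SE 0.24, adjusted p = 0.00266), again with both 24 h libraries above all others. Hoxa10 stood at 301.4 and 313.1 (24 h), 247.3 and 283.7 (48 h), 259.8 and 238.9 (72 h), 170.5 and 177.5 (96 h), then 208 and 222.6 (7 d) and was lowest at 96 h. Its log2 fold change at 7 d was -0.51 (SE 0.15, adjusted p = 0.00873), lost without JNKi 24 h replicate 2 (0.0505) or JNKi 7 d replicate 1 (0.0571; range over 31 fits 0.00406 to 0.0571). Hoxa2 stood at 6.7 and 3.2 (24 h), 3.5 and 2.5 (48 h), 4.1 and 11.3 (72 h), 5.7 and 11.9 (96 h), then 11.1 and 9.8 (7 d), with a replicate gap at 72 h like that in DMSO, and Hoxa9 at 20.2 and 12.8 (24 h), 10.4 and 8.7 (48 h), 8.1 and 11.3 (72 h), 9.5 and 13.5 (96 h), then 5.5 and 9.1 (7 d). Their log2 fold changes of 1.01 (SE 0.62) and -1.08 (SE 0.54) did not pass. Hoxb8 (0.48, SE 0.23, adjusted p = 0.0818), Hoxb3 (0.16, SE 0.21), Hoxa3 (0.27, SE 0.32) and Hoxa5 (0.89, SE 0.90) did not pass either.

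JNKi was then set against DMSO at each time. From 24 to 96 h none of the 13 members passed limma's test at any time, none had an unadjusted p under 0.05, and edgeR and DESeq2 on the recovered reads called 0 as well. The background at these times was 0% of genes at 24 h and 48 h, 0.072% at 72 h (0.0432% higher and 0.0288% lower) and 0.0072% at 96 h. Libraries of the arms did not overlap for 2, 1, 2 and 5 of the 13 members at 24, 48, 72 and 96 h, against 27.1%, 29.2%, 36.4% and 39.4% of all genes. The Hoxb9 log2 difference was 0.33 (95% interval -0.10 to 0.77) at 24 h, -0.00 (-0.43 to 0.43) at 48 h, -0.23 (-0.66 to 0.20) at 72 h and -0.41 (-0.84 to 0.02) at 96 h.

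At 7 d 1 of the 13 members changed, against 10.2% of all genes (4.84% higher and 5.33% lower). It was Hoxb9, at 169.1 and 168.7 normalized reads in JNKi against 343.4 and 381.9 in DMSO. The JNKi libraries lay below both DMSO libraries and at the level of DMSO at 96 h (143.9 and 171.1). The mean was 169 ± 0.283 in JNKi and 363 ± 27.2 in DMSO (SD, n = 2 each), a ratio of 0.466. The log2 difference was -1.10 (SE 0.20, 95% interval -1.53 to -0.66, limma adjusted p = 0.00329, which may be too small by a check on simulated counts), rank 85 from the bottom among 13896 genes. It lay between -1.17 and -1.02 in 32 other fits and passed in 31 of them. The exception, chosen after seeing the data, left out both replicate 1 libraries of 7 d and kept 1 library per arm at that time (-1.17, adjusted p = 0.114; range over the fits 3.42e-05 to 0.114).

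The Hoxb9 effect at 7 d was also tested against its effect at 24 h. The difference of the differences was -1.43 (limma SE 0.29, adjusted p = 0.0176), and Hoxb9 was the 1 member of 13 called, against 2.1% of all genes (0.799% higher and 1.3% lower). This call was lost without JNKi 24 h replicate 1 (0.0628), JNKi 7 d replicate 1 (0.0835) or JNKi 7 d replicate 2 (0.0608), and in a fit on the 8 libraries of these times (0.0777; range over 32 fits 0.00389 to 0.165). The size stayed between -1.60 and -1.26. Of the others, Hoxb6 had 0.79 (95% interval -0.16 to 1.74) and Hoxb8 -0.58 (-1.27 to 0.11). Hoxb6 passed only with a replicate block within each time (limma adjusted p = 0.0308). In the mean over all times no member passed (4.77% of all genes did, 2.45% higher and 2.32% lower): Hoxb9 had -0.28 (SE 0.09, adjusted p = 0.0919) and Hoxb3 -0.24 (SE 0.09, adjusted p = 0.166), the 2 members with an unadjusted p under 0.05. By edgeR and by DESeq2 0 members passed as well. With a replicate block within each time 2 members passed by limma, Hoxb3 (adjusted p = 0.00731) and Hoxb9 (adjusted p = 0.0376).

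**Figure D4:**
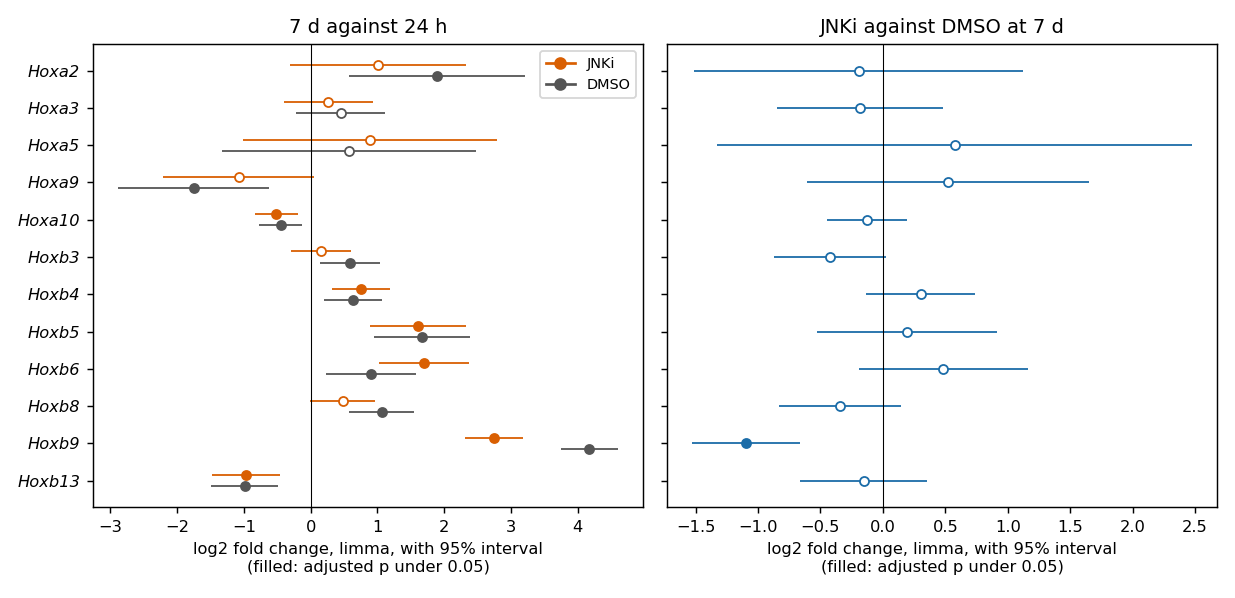
Log2 fold changes of expressed Hox genes with 95% intervals, at 7 d against 24 h in each arm (left) and for JNKi against DMSO at 7 d (right), with filled points past the limma test. Hoxb9 lies farthest right in both arms (2.74 in JNKi and 4.17 in DMSO) and is the filled point on the right (-1.10).

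No other member passed at 7 d, and the 95% intervals of their differences all included 0. With a replicate block within each time, Hoxb3 (adjusted p = 0.0174; range over 32 fits 0.0174 to 0.684) and Hoxb6 (adjusted p = 0.0332; range 0.0332 to 0.769) passed as well by limma. Hoxb3 stood at 211.4 and 159.8 (24 h), 250.7 and 212.8 (48 h), 220.7 and 270.3 (72 h), 205.8 and 241.7 (96 h), then 202.4 and 207.2 (7 d) normalized reads with JNKi, below both DMSO libraries at 7 d, with a log2 difference of -0.42 (95% interval -0.87 to 0.02, limma adjusted p = 0.213). Hoxb6 was at 196.9 and 276.5 in JNKi and 148.1 and 187.2 in DMSO, a difference of 0.48 (-0.19 to 1.16). Hoxb8 had -0.34 (-0.83 to 0.14) and Hoxb4 0.30 (-0.13 to 0.74). The narrowest interval was that of Hoxa10 (-0.13, -0.45 to 0.19), and the widest that of Hoxa5 (0.58, -1.33 to 2.48). Hoxb5 (0.19, -0.53 to 0.91), Hoxb13 (-0.15, -0.66 to 0.35), Hoxa3 (-0.18, -0.85 to 0.48) and Hoxa2 (-0.19, -1.51 to 1.12) lay between. Hoxa9 had 0.52 (-0.61 to 1.65) and passed without DMSO 7 d replicate 2, which made the count 2 (1.59, adjusted p = 0.0492; range over 31 fits 0.0492 to 0.958). In 7 of 13 members the libraries of the arms did not overlap at 7 d, against 58.2% of all genes, and the median was -0.15 beside 0.02.

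Promoter sequence was available from RefSeq (GRCm38.p6) for 20 of the 37 members, with 22 windows of 300 bases around the transcript start, and Hoxb9 was not among them. The letters bound by PBX and HOX proteins together (TGATNNAT, either strand) occurred in 4 of the 22 windows, those of Hoxa2, Hoxb8, Hoxb1 and Hoxd11, and in 8.85% of 32851 windows of all genes. Hoxa2 (chr6:52164782-52165081, minus strand) and Hoxb8 (chr11:96281655-96281954, plus strand) are the expressed members among them. Both were higher at 7 d than at 24 h in DMSO, where the entry and the rise of Hoxa2 share values, and neither passed in JNKi. Hoxb4, with no match in its window, rose in both arms. A link between match and change was not tested. The windows of Hoxa2 and Hoxb8 are shown with the match in capitals.
Hoxa2: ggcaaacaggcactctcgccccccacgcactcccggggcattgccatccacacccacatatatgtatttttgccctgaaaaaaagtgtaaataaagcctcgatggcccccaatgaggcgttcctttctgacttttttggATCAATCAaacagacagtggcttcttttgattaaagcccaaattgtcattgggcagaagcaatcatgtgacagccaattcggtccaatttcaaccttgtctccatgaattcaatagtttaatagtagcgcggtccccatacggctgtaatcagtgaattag
Hoxb8: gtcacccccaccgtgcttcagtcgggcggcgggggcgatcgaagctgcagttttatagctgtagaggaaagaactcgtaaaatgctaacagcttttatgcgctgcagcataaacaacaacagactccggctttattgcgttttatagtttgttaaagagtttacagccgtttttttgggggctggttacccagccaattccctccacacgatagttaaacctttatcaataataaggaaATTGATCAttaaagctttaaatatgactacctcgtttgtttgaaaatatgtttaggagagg
The site of AP-1, the Jun-containing factor (TGANTCA, either strand), occurred in 1 of the 22 windows, in the silent gene Hoxd11, and in 7.81% of all windows. The cyclic AMP element (TGACGTCA) occurred in 0 and in 1.79% of all, the TEAD letters (GGAATG) in 2 (Hoxd10 and Hoxa9) and in 14.7%, and the SMAD palindrome (GTCTAGAC) in 0 and in 0.213%. The AP-1 and PBX-HOX letters can overlap, but the 2 matches of Hoxd11 lie in separate windows. The median GC content was 55.8% in 8 windows of expressed members, 59.8% in 14 windows of silent members and 52.7% over all windows.

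Genes that act with or on Hox genes were described from 4 lists chosen with earlier results of these data known. Of 8 expressed TALE cofactors 2 rose and 2 fell at 7 d against 24 h in DMSO (median log2 fold change -0.03, beside 0.06 over all genes), where 32% of all genes rose and 28% fell. Meis1, whose protein binds with HOX and PBX, rose by 0.87 (limma SE 0.21, adjusted p = 0.00197), with 244 ± 33.4 normalized reads at 7 d and 134 ± 28.8 at 24 h (SD, n = 2 each). Pbx2 was at -0.20 (SE 0.09) and did not pass. With JNKi against DMSO at 7 d none of the 8 passed.

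Among 28 chromatin regulators of the clusters, Polycomb and Trithorax genes for the most part, 9 rose and 10 fell at 7 d in DMSO (median -0.01), against 32% and 28% of all genes. With JNKi against DMSO at 7 d 2 of the 28 fell, against 5.33% of all genes. Phc2, a Polycomb subunit gene, fell by 0.63 (limma SE 0.08, adjusted p = 9.13e-06) with time and Gmnn, which encodes the replication inhibitor geminin, by 1.46 (SE 0.18). Cbx6, a Polycomb chromobox gene, was at -0.01 (SE 0.11).

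Of 15 expressed genes of retinoic acid synthesis, breakdown and response 9 rose and 1 fell in JNKi at 7 d against 24 h (median 1.65), and 9 rose and 1 fell in DMSO (median 1.11), beside a median of 0.06 over all genes in either arm. Of all genes 31.7% rose and 26.3% fell in JNKi, and 32% rose and 28% fell in DMSO. Rdh10, which makes retinal for retinoic acid synthesis, rose by 1.11 (limma SE 0.19, adjusted p = 9.85e-05) in DMSO. Cyp26a1, which breaks retinoic acid down, stood at 14.6 ± 6.79 normalized reads in JNKi and 13.9 ± 1.63 in DMSO at 7 d, and at 0 in both JNKi libraries and 0.7 ± 0.99 in DMSO at 24 h (SD, n = 2 each). It was under the expression limit at 24 h in both arms, so its entry and its rise share values, and the counts and medians include it. Other genes of this list were not checked for this. Dhrs3, which turns retinal back to retinol, had a log2 fold change of 3.51 (SE 1.31, adjusted p = 0.0286) that rested on DMSO 24 h replicate 2. It was 0.41 without that library (adjusted p = 0.741), was also lost without either DMSO library of 7 d (0.0776 and 0.109; range over 31 fits 3.25e-05 to 0.741), and edgeR gave 1.44. Rxrb, a retinoid X receptor gene, had -0.19 (SE 0.10) and did not pass. Against DMSO at 7 d 2 of the 15 rose with JNKi, against 4.84% of all genes.

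Of 4 expressed Hox-like homeobox genes outside the clusters 1 rose and 1 fell in DMSO, against 32% and 28% of all genes. Cdx2, an intestinal factor that switches on posterior Hox genes in the embryo, fell by 2.40 (limma SE 0.17, adjusted p = 1e-08) in DMSO and by 1.60 (SE 0.17) in JNKi. At 7 d it stood at 318 ± 0.778 normalized reads in JNKi and 178 ± 30.3 in DMSO, and at 24 h at 971 ± 90.4 in JNKi and 939 ± 19.4 in DMSO (SD, n = 2 each). It was higher with JNKi at 7 d by 0.85 (SE 0.17, adjusted p = 0.00503), a call lost without DMSO 7 d replicate 1 (0.67, adjusted p = 0.0852; range over 32 fits 0.000178 to 0.253). Gbx1 rose by 1.92 (limma SE 0.57, adjusted p = 0.00881) in DMSO, and by 1.75 without DMSO 7 d replicate 1. Its mean at 24 h was under the expression limit (4.15 normalized reads in JNKi and 6.4 in DMSO), so its entry and its rise share values. Meox1 was at -0.08 (SE 0.33).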

How the data were processed

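RNA of 20 libraries was analysed, 2 in each of 10 groups. The signal that the authors deposited is the normalized read count of each gene, to 1 decimal; TopHat, HTSeq, DESeq and mm9 are named, without versions or strand setting, in the submitters' processing notes. Low values were whole multiples of 1 step per library; 99.9 to 100% of values lay within 0.1 of a whole read, which gave reads and depth. The time course values that the authors deposited were not used: 95.7% of 11405 genes jumped both ways between entries along a row, so entries could not be assigned to libraries.

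The log2 of value plus 1 was fitted with limma 3.58.1 (R 4.3.3), with a trend and 1 mean per group, over the 13896 genes that reached a mean of 10 in any group. The two-sided p-values were adjusted over all of them by Benjamini-Hochberg; calls needed a value under 0.05. Fold changes keep that log2 scale, a difference of mean logs: the added 1 shrinks changes of low genes, and a single low library can enlarge them beyond the ratio of means. Each SE comes from the model. On the recovered reads, edgeR 4.0.16 called 1589 genes and DESeq2 1.42.0 called 1593 for JNKi against DMSO at 7 d, where limma called 1414. Checked on simulated counts of JNKi against DMSO at 7 d, the limma test gave more calls on unchanged genes than its threshold allows, so adjusted p-values of that comparison may be too small.

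The members, lists and rules were chosen with earlier results of these data known. Values of every library are given for the 2 highest expressed members of each cluster, any member called in a JNKi contrast, and the 3 largest rises and 3 largest falls at 7 d in DMSO; each related list gives its 2 highest means and 2 largest changes. Levels per kb use the GENCODE M21 exon union. The 523 receptor genes exclude 12 that were expressed, a choice made after seeing values. The intervals given for fold changes and for differences between the arms come from the limma model, as each SE does. Other pseudocounts, filters, scalings, replicate blocks, tools and left-out libraries were tried. Some genes and sequences that these rules would name are not reported here.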

Additional observations from a re-analysis of the deposited data

Results flagged for a closer look

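Hoxb9 differed in its response to JNKi between 7 d and 24 h: the log2 difference between JNKi and DMSO was -1.10 at 7 d and 0.33 at 24 h, and the difference of these differences was -1.43 (SE 0.29, limma adjusted p = 0.0176). Both JNKi libraries lay below both DMSO libraries at 7 d and above both at 24 h. Libraries of the arms did not overlap, in either direction, for 58.2% of all genes at 7 d and 27.1% at 24 h. The Hoxb9 difference at 24 h did not pass on its own (limma, unadjusted p = 0.121), so a rise with JNKi at 24 h was not shown. The call was lost without JNKi 24 h replicate 1 (0.0628), JNKi 7 d replicate 1 (0.0835) or JNKi 7 d replicate 2 (0.0608), and on the libraries of these times alone (0.0777; limma adjusted p over 32 fits 0.00389 to 0.165). What it reflects was not tested.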

How the results depend on the processing

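Of 4068 values of the 13 expressed members under other settings, 4007 kept their side of the threshold, 44 lost a call and 17 gained one. Direction was compared only where at least 1 of the 2 fits made a call, and there 0 reversed. Uncalled values could change sign: the Hoxa5 difference between the arms at 24 h ran from -0.84 to 1.37. The number of members called changed as follows. Leaving out each library in turn gave 4 to 9 members (8 in full) for DMSO at 96 h, 6 to 10 (10 in full) for DMSO at 7 d, 1 to 2 (1 in full) for JNKi against DMSO at 7 d, and 0 to 1 (1 in full) for the difference between 7 d and 24 h. Fits on the compared libraries alone gave 6 for DMSO at 7 d and 0 for that difference. Without the filter on low values 15 members were called for DMSO at 7 d against 24 h (10 in full) and 11 for JNKi (6 in full). For JNKi against DMSO at 7 d 2 were called, and 2 for the difference. The added ones at 7 d against 24 h were higher at 7 d: Hoxc6, Hoxc8, Hoxc10, Hoxd3 and Hoxd13 in DMSO, and Hoxc6, Hoxc10, Hoxd3, Hoxd4 and Hoxd13 in JNKi. In JNKi against DMSO at 7 d and in the difference Hoxd4 (1.93) was added. All of these were under the expression limit. Without both replicate 1 libraries of 7 d, chosen after seeing the data, the counts were 6 for DMSO at 7 d, 0 for JNKi against DMSO at 7 d and 0 for the difference. TMM rescaling moved the median of all genes by -0.03.

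Replicate numbers are shared between arms. The difference between replicates correlated between the arms at 0.73, 0.59, 0.72 and 0.53 from 24 to 96 h and at 0.07 at 7 d, over 9605 genes, so not every pair passed 0.1 and the numbers were not taken to pair the libraries. From 24 to 96 h the replicates thus varied partly alike in both arms. The main fit leaves this shared variation in its error, so it may miss differences between the arms at these times. With a replicate block the counts were 11 for DMSO at 7 d, 6 for JNKi at 7 d, 1 for JNKi against DMSO at 7 d and 1 for the difference. With a replicate block within each time they were 3 for JNKi against DMSO at 7 d (Hoxb9, Hoxb3 and Hoxb6), 2 for the mean over all times (Hoxb9 and Hoxb3) and 2 for the difference (Hoxb9 and Hoxb6). At 24, 48, 72 and 96 h that block called 0 members at each time, and over all genes it called 334 at 72 h and 99 at 96 h.

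Over all genes, calls ranged with the setting from 122 to 3522 for JNKi against DMSO at 7 d (1414 in full), from 304 to 2198 for the mean (663), from 28 to 1741 for the difference (292), from 0 to 334 at 72 h (10), from 0 to 99 at 96 h (1), from 0 to 19 at 24 h (0) and from 0 to 15 at 48 h (0). The lone 7 d or 24 h library of a left-out fit is assumed to vary like the other groups. JNKi 7 d replicate 1, with 9.5 M reads, limits the low members.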
